A study of Rattus norvegicus with 4 samples.

Results

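The genes described here are 35 transcripts of monocytes, macrophages and other phagocytes, taken by gene symbol from the annotation of the array. Of the 35, 34 had at least 1 array feature, of 14871 genes with a single symbol, and Stab1 had none that carried its symbol here. Both groups of rats were of the Lewis strain (Lew in the labels) and carried an allogeneic kidney graft, so the control animals also underwent transplantation against a mismatched donor, whose strain the labels do not name. The animals were injected into a vein every day from surgery on, at 6 mg/kg, either with an ApoE-mimetic peptide, modelled on apolipoprotein E, or with a control peptide, and the grafts were collected on day 4. The design text gives 4 biological replicates on 4 two-colour arrays, and each array held RNA of 1 ApoE-mimetic and 1 control graft. The study concerns acute rejection, and the comparison asks whether these transcripts differ between grafts under the peptides.

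Phagocytes enter a rejecting kidney graft from the blood and also live in the organ. The growth factor Csf1 acts on its receptor Csf1r to keep macrophages alive, and the transcription factor PU.1, the product of Spi1, drives much of their gene programme. Mature phagocytes take up particles through scavenger and Fc receptors, kill with oxygen radicals made by the NADPH oxidase, sense the complement fragments C3a and C5a, and stimulate T cells through Cd80, Cd86 and Cd40. Several of these genes are not restricted to macrophages, since natural killer cells use Fcer1g and Tyrobp, B cells use Lyn and Fcgr2b, and many stromal and epithelial cells make Csf1 or Lgals3.

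The values are log2 ratios of the channels of an array, and each was taken relative to the array's median gene, so that 0 marks a gene at the middle of that array. The numerator was taken to be Cy5, and the ratios of replicates 2 and 4, whose ApoE-mimetic RNA carried Cy3 per the labels, were turned, so that a positive value lies on the ApoE side and a negative value on the control side. Neither labels nor values settled this reading. If Cy3 is the numerator, the ratios, medians and coefficients given by peptide change sign, and the correlations between arrays do not. If the columns were turned before deposit, the ratios of replicates 2 and 4 change sign and those of 1 and 3 stay. For that reading the mean of the medians, the limma results and the counts of genes with 1 sign on all arrays are given beside the others. The ratios and medians of single arrays, and the orders of signs over them, are given for the first reading only. Replicates 1 and 3, of the same labelled dye orientation, had a Pearson correlation of -0.238 across 45165 features, and replicates 2 and 4, of the other orientation, one of -0.085. Over the 13363 measured features, defined next, these were -0.657 and -0.043, and features are not independent replicates. A feature that shared its exact ratio with more than 1 other feature on any array, or held the shared value next to 0, was taken as dim or saturated, an inference from the values alone. Features outside that class are called measured here. Of the 55 features of the 34 genes, 36 were measured, and 26 genes had at least 1. Among markers of the labelled tissue, 7 of 8 proximal tubule genes had a measured feature, and 6 of 8 macrophage markers did. Replicate 4 had an SD of 1.26 over all features against 0.87 to 0.89 on the others. Over genes with a measured feature, on those features alone, its SD was 0.58 against 0.66 to 0.71 on the others. In the ratios of replicate 4 as deposited, the median feature was -0.80 over the outer 10 columns at one edge of the array grid. It was 0.40 over the outer 10 columns at the other edge. The grid's width of 85 columns was read from the values.

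Phagocyte genes lay together on one side of the median gene on replicates 1, 2 and 3, but that side was not the same peptide on each array. On replicate 1, 28 of 34 genes lay on the ApoE side, with a median of 0.26, and on replicate 2, 29 of 34 did, with a median of 0.56. On replicate 3 the direction turned, with 5 of 34 on the ApoE side and a median of -0.72. Replicate 4 was more mixed, with 11 of 34 on the ApoE side and a median of -0.41. The mean of the 4 medians was -0.08 ± 0.59 (SD, n = 4), a mean smaller than the spread between the arrays. With columns taken as turned before deposit it was -0.15 ± 0.57 (SD, n = 4).

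**Figure D1:**
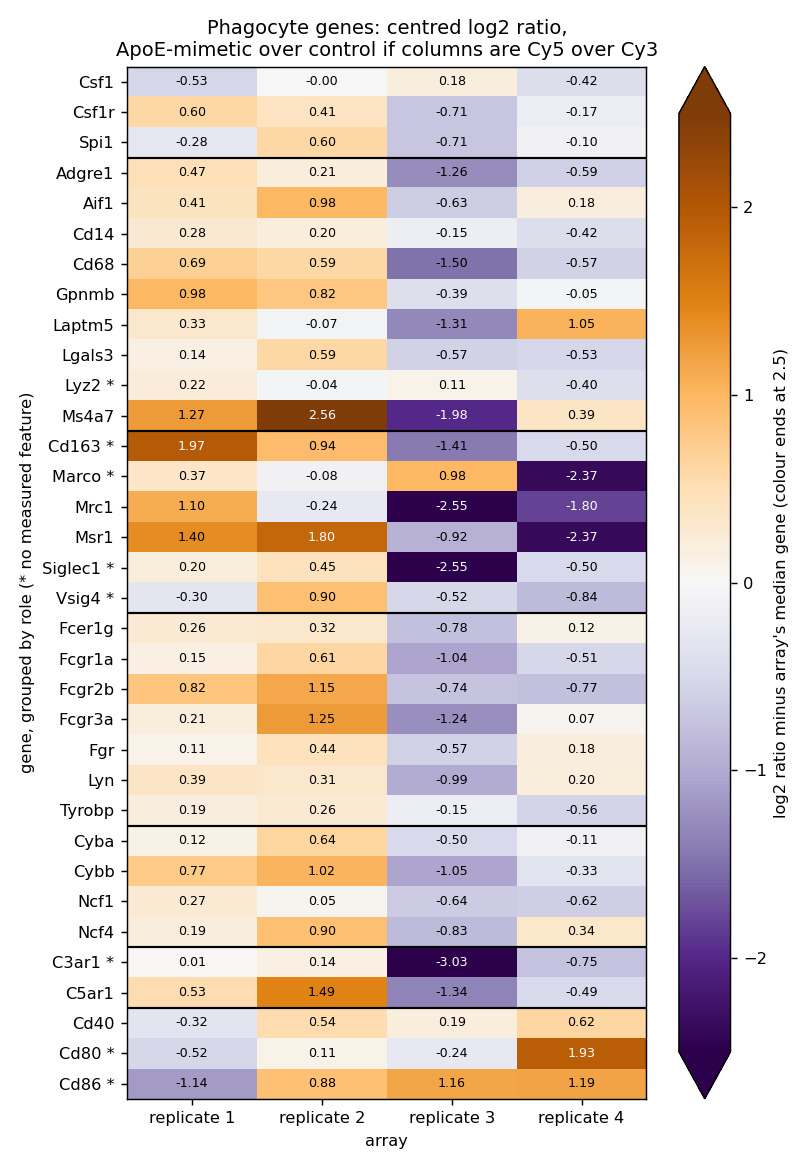
Centred log2 ratio of the 34 phagocyte genes (rows, grouped by role, with a line between roles) on each of 4 arrays (columns), orange for the ApoE side and purple for the control side. Most rows are orange on replicates 1 and 2 and purple on replicate 3, where 5 of 34 genes lie above 0, and an asterisk marks the 8 genes with no measured feature.

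Over the 26 genes with a measured feature, and on those features alone, 22 lay above 0 on replicates 1 and 2 and below 0 on replicate 3. Of 6731 genes with a measured feature 23.9% had that order of signs. Over all features it held for 24 of 34 phagocyte genes, against 16.5% of 14847 genes with a value on every array. The order was seen in these ratios before it was counted, so the shares describe it and test nothing. Of the 22 genes, 13 lay below 0 on replicate 4 and 9 above. The exceptions among the 26 were Csf1, Cd40, Spi1 and Mrc1. The SD of a gene over its 4 ratios had a median of 0.68 over the 26 genes, from 0.30 to 2.05, and 0.38 over all 6731 genes, and 23 of the 26 exceeded 0.38. In a bulk graft, more phagocytes and more RNA of these genes per cell cannot be told apart.

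Promoters of these genes are shown for a site that PU.1 is known to bind, the core GAGGAA or its reverse complement TTCCTC. Both strands were searched in the 250 bases before each gene's start as RefSeq gives it on GRCr8. Whether the core goes with the order of signs over the arrays was not tested. Of the genes printed below, Mrc1 holds the core without that order, and Ms4a7 has the order without the core. Of 21 of the 35 listed genes with a promoter in that table, 13 held the core, 61.9%, against 23.3% of 33469 promoter windows of that length. The first share counts genes, with a match in any window of the gene, and the other counts single windows. Stab1, which has no feature and so no ratio, is among both the 21 and the 13. Among the 13 with a measured feature, 9 held it. A match to these letters is a description of sequence and not evidence of binding. Below are the 150 bases before the start of 5 genes, 1 each from the growth, marker, scavenger, Fc receptor and oxidase groups, followed by Ms4a7, which had no match in its window and an SD over arrays of 1.93. These genes were chosen after their ratios and matches were seen. They are written 5′ to 3′ on the gene's strand with the core in capitals. Csf1r is at chr18:56834229-56834378 on the plus strand, Cd68 at chr10:54882442-54882591 on the minus strand, Mrc1 at chr17:82157575-82157724 on the plus strand, Fcgr3a at chr13:85782486-85782635 on the plus strand, Cybb at chrX:16065066-16065215 on the minus strand and Ms4a7 at chr1:217409644-217409793 on the minus strand. The core starts 95 bases before the start of Csf1r, 27 before that of Cd68, 35 before that of Mrc1, 54 before that of Fcgr3a and 14 before that of Cybb.
Csf1r: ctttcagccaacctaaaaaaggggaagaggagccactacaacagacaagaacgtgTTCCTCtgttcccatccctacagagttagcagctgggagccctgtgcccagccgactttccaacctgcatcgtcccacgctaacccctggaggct
Cd68: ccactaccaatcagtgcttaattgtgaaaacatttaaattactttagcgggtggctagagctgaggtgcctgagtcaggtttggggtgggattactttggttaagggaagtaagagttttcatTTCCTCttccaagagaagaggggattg
Mrc1: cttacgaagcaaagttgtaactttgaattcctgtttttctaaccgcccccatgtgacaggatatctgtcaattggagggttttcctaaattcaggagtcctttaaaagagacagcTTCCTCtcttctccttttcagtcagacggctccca
Fcgr3a: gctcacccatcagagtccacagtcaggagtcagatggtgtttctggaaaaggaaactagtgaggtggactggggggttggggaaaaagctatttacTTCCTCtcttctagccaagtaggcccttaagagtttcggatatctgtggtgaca
Cybb: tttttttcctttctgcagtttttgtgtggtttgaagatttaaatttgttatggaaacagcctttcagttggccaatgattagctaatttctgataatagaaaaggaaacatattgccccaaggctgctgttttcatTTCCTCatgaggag
Ms4a7: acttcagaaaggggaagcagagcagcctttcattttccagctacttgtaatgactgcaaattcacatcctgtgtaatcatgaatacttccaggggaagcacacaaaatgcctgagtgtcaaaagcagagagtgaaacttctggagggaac

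Of the 3 lineage regulators, 1 had the common order, above 0 on replicates 1 and 2 and below 0 on replicate 3. Spi1, which encodes PU.1, had ratios of -0.28, 0.60, -0.71 and -0.10 on replicates 1 to 4. It was therefore on the control side of replicate 1, where 28 of the 34 genes were on the ApoE side. Against the median of measured genes Spi1 had -0.07 there, close to 0. Csf1r, the receptor that marks the macrophage lineage, had 0.60, 0.41, -0.71 and -0.17, the common order with a small value on replicate 4. Its 1 measured feature of 3 gave 0.52, 0.29, -1.02 and 0.13 against the median of measured genes. The ligand Csf1 had -0.53, 0.00, 0.18 and -0.42, opposite to its receptor on replicates 1 and 3. Its 2 features differed by at most 0.30 on an array.

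Among the 9 general macrophage markers, 7 had the common order, and all 8 with a measured feature had it on those features. Cd68, a lysosomal glycoprotein of macrophages, had 0.69, 0.59, -1.50 and -0.57. Adgre1, the F4/80 antigen of mice, had 0.47, 0.21, -1.26 and -0.59. Both were highest on replicate 1 and lowest on replicate 3, and both were above 0 on replicates 1 and 2 and below 0 on 3 and 4. Those 4 signs, also seen before they were counted, held for 17 of 34 phagocyte genes and 8.23% of all genes. On measured features alone Adgre1 had 0.41 on replicate 4, so its side there rests on a feature that was dim on all 4 arrays. Ms4a7, a membrane protein of macrophages, had 1.27, 2.56, -1.98 and 0.39. Its 2 features, both measured, differed by at most 0.43 on an array while their mean ranged over 4.54 log2 units between arrays.

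Cd14, Lgals3 and Aif1 each had a smaller SD over the arrays than Cd68, Adgre1 and Ms4a7. Cd14, the co-receptor for bacterial lipopolysaccharide, had 0.28, 0.20, -0.15 and -0.42, and Lgals3, which encodes the lectin galectin-3, had 0.14, 0.59, -0.57 and -0.53. Aif1, an actin-binding protein of activated macrophages, had 0.41, 0.98, -0.63 and 0.18. All 3 genes lay on the ApoE side on replicates 1 and 2 and on the control side on replicate 3. Gpnmb, a glycoprotein of macrophages with loaded lysosomes, had 0.98, 0.82, -0.39 and -0.05, and its 1 measured feature of 2 gave 1.59, 0.91, -1.43 and -0.99. Laptm5, a lysosomal protein of blood cells, had 0.33, -0.07, -1.31 and 1.05, and its value on replicate 4 was 0.22 on its measured feature. Lyz2, which encodes lysozyme, had 1 feature that held the shared value next to 0 on 3 arrays, so its ratio was not resolved there.

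Scavenger receptors had wide ratios, with a median SD over arrays of 1.48, and few measured features. Of the 6 genes with a feature, Mrc1 and Msr1 had a measured one. Mrc1, the mannose receptor, had 1.10, -0.24, -2.55 and -1.80. Msr1, the class A receptor for modified lipoproteins, had 1.40, 1.80, -0.92 and -2.37, so replicates 1 and 2 lay on the ApoE side and 3 and 4 on the control side. All 6 genes lay on the control side on replicate 4, with a median of -1.32, but with the median of each grid column subtracted Siglec1 had 0.15 there. Cd163, the receptor for haemoglobin bound to haptoglobin, Marco, Siglec1 and Vsig4, which binds complement fragments, had no measured feature. Together with C3ar1, Cd80, Cd86 and Lyz2 these made up the 8 such genes, whose ratios ran from -3.03 for C3ar1 to 1.97 for Cd163.

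Genes of the Fc receptor pathway showed the common order in 7 of 7 cases, on the ApoE side of replicates 1 and 2 and the control side of replicate 3. Fcgr1a, the high-affinity receptor for immunoglobulin G, had 0.15, 0.61, -1.04 and -0.51. Fcgr2b, the inhibitory receptor of the family, had 0.82, 1.15, -0.74 and -0.77, and the activating receptor Fcgr3a had 0.21, 1.25, -1.24 and 0.07. Activating and inhibitory receptors thus lay on the same side on the first 3 arrays. Fcgr genes are a family of similar sequence, and whether a feature also bound a relative was not tested. The 2 features of Fcgr3a lay on opposite sides on replicates 1 and 4. The adaptor Fcer1g, which carries the signal of activating Fc receptors, had 0.26, 0.32, -0.78 and 0.12. Tyrobp, a second adaptor of that kind, had 0.19, 0.26, -0.15 and -0.56, with -0.08 on replicate 4 on its measured feature. The adaptors had smaller ratios than Fcgr2b on replicates 1 and 2. Of the Src-family kinases downstream, Fgr had 0.11, 0.44, -0.57 and 0.18, and Lyn had 0.39, 0.31, -0.99 and 0.20.

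NADPH oxidase genes followed in 4 of 4 cases. Cybb, the catalytic subunit in the membrane, had 0.77, 1.02, -1.05 and -0.33, with its 2 measured features within 0.39 of each other. Its membrane partner Cyba had 0.12, 0.64, -0.50 and -0.11. The catalytic subunit thus had the wider ratio on each array. The cytosolic organiser Ncf1 had 0.27, 0.05, -0.64 and -0.62, and Ncf4, a further cytosolic subunit, had 0.19, 0.90, -0.83 and 0.34. Replicate 4 separated these, with Ncf4 on the ApoE side and Ncf1 on the control side. With the median of each grid column subtracted, Ncf4 had 0.04 there, close to 0, and Ncf1 had -0.82.

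The anaphylatoxin receptor C5ar1 had 0.53, 1.49, -1.34 and -0.49, in the common order. The costimulatory genes did not share it. Cd40 had -0.32, 0.54, 0.19 and 0.62 over 2 measured features that lay on the same side on all arrays. It was on the control side of replicate 1 and the ApoE side of replicate 3, opposite to Cd68 and Csf1r on both. Cd80 and Cd86, without a measured feature, were also on the control side on replicate 1, and they lay on the ApoE side on replicate 4.

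Separate features of a gene were used to set the noise of a single ratio against the differences between arrays. For the 9 genes with 2 or more measured features, the gap between the features of a gene had a median of 0.21 log2 units, and the mean of a gene ranged over a median of 1.38 between arrays. The gap is a median over arrays and the range a highest minus a lowest value, which is larger by construction. The largest gap on 1 array was 1.21 for Lyn, whose mean ranged over 1.38, 1.02 for Cd68, with a range of 1.91, and 0.95 for Fcgr3a, with a range of 2.49. All measured features of a gene lay on the same side of the median gene in 31 of 36 comparisons, and for 5 of the 9 genes on all 4 arrays. Features of 1 gene on an array share their RNA samples, so this measures the noise of the array and not of the animals.

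**Figure D2:**
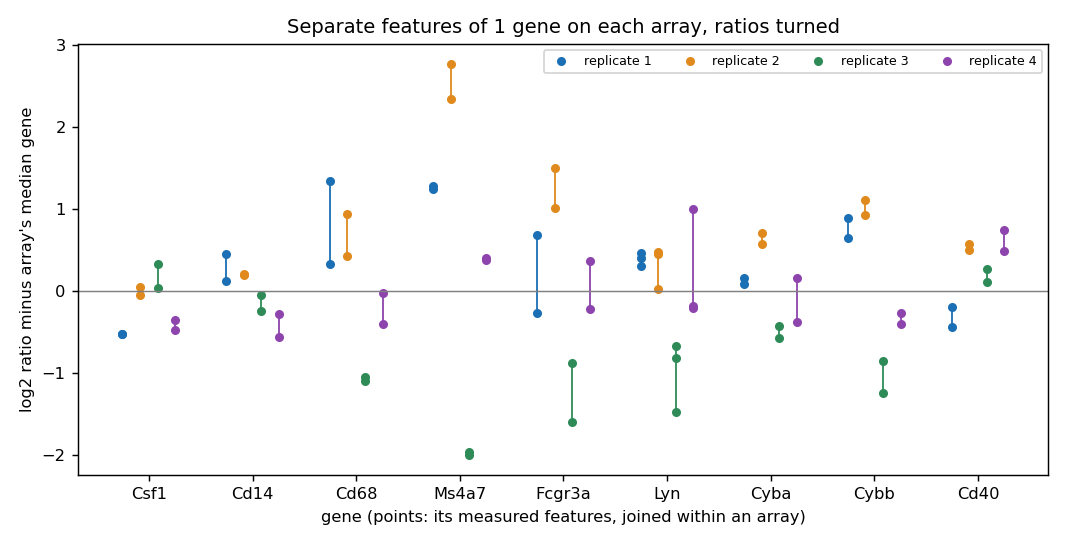
Centred log2 ratio (vertical axis) of each measured feature for the 9 genes with 2 or more, in colours for replicates 1 to 4, with a line joining the features of a gene on 1 array. For Ms4a7 the features differ by at most 0.43, while the arrays differ by 4.54, whereas for Lyn the features differ by up to 1.21 and the arrays by 1.38.

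Markers of other cell types moved on the same arrays. T cell markers, with 8 of 8 genes on the array, had medians of 0.70, 1.63, -1.29 and 1.51 on replicates 1 to 4. All 8 were on the ApoE side on replicates 1, 2 and 4, and 0 were on replicate 3. The 5 natural killer markers had medians of 1.02, 1.28, -1.26 and 0.91. By their medians, T cell, natural killer and phagocyte genes therefore lay on the same side on replicates 1, 2 and 3, and on replicate 4 the phagocyte genes lay opposite to the other two. On measured features alone the phagocyte median on replicate 4 was -0.21, with 10 of 26 genes above 0, and the T cell median was 1.33. Of the 6 macrophage markers with a measured feature, 3 lay above 0 there and 3 below. Proximal tubule markers, 8 genes of the reabsorbing epithelium, had -1.10, -1.66, 1.16 and 0.40, medians on the side opposite to that of the phagocyte genes on all 4 arrays, with 4 of 8 genes on either side on replicate 4. The 5 endothelial markers had -0.45, -0.56, 0.08 and 1.23. The part of tissue composition in these ratios was not tested, and no level of any marker was available, since the table holds ratios.

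Neutrophil markers lay opposite to the phagocyte genes on replicate 2. Their medians were 0.05, -0.30, 0.33 and -1.29 over 8 genes, of which S100a8 and S100a9 had a measured feature. S100a9, a calcium-binding protein of neutrophils and monocytes, had 1.08, -1.03, -2.74 and -2.24, and S100a8 had 0.29, -0.53, -0.49 and -1.59. Both lay on the control side on replicate 2, where Cd68 and Cybb were on the ApoE side. On replicate 3 these genes lay on the control side with the phagocyte genes, so the positive median of the 8 there comes from genes without a measured feature. B cell markers had a feature for 2 of 5 genes and a measured one for 0, and their medians of -0.49, -0.11, -0.86 and 0.34 lay opposite to the phagocyte genes on replicates 1, 2 and 4.

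**Figure D3:**
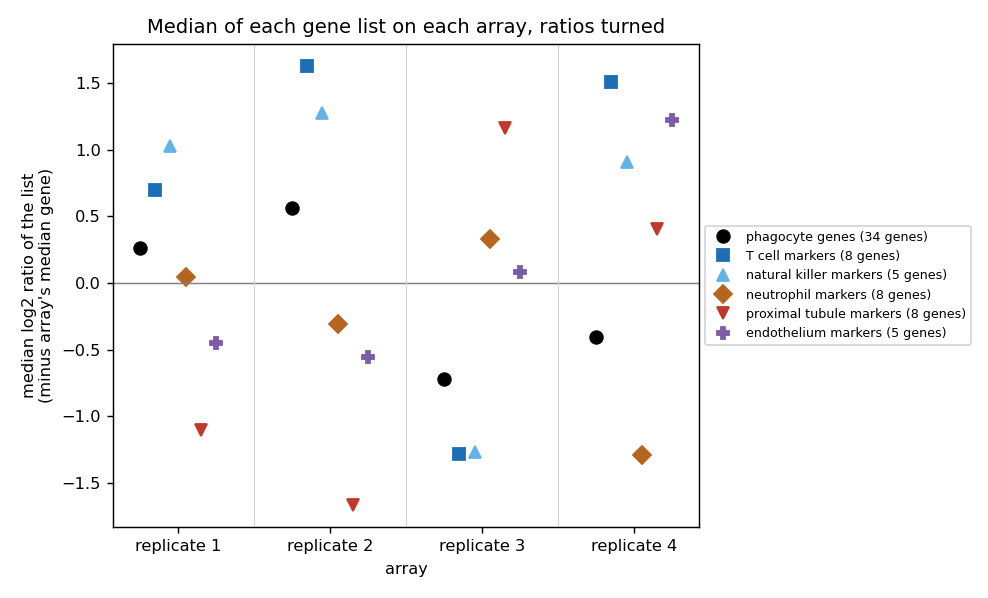
Median centred log2 ratio (vertical axis) of the 34 phagocyte genes and of 5 marker lists on each array. On replicate 4 the phagocyte median is -0.41 while the T cell median is 1.51, and on the other arrays both lie on the same side of 0. Medians are over all features, and on measured features alone the phagocyte median on replicate 4 is -0.21.

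A set of 6 further lists, of genes outside the 35 that phagocytes use, was measured in the same way. Not all of these genes are restricted to phagocytes. The order of the first 3 arrays also held for 8 of 8 T cell markers and 5 of 5 natural killer markers. Of 11 immunoreceptor signalling genes, 9 had the order of the first 3 arrays, and their medians were 0.33, 0.58, -0.74 and -0.21. Syk, the kinase recruited by Fc receptor adaptors, had 0.60, 0.08, -1.13 and -0.21, the phospholipase Plcg2 had 0.07, 0.35, -0.66 and 0.11, and the exchange factor Vav1 had 0.56, 1.26, -1.11 and 0.18. All 6 integrin and leukocyte surface genes had it too, among them the integrin Itgam with 0.91, 0.74, -0.72 and -0.20 and the phosphatase Ptprc with 0.42, 0.31, -0.43 and -0.06. Coro1a, which encodes an actin-binding protein of leukocytes in general, had 0.42, 1.21, -1.14 and 0.74, and on replicate 4 lay on the side of the T cell markers.

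Transcription factors, uptake genes and chemokines were less uniform. Of 9 transcription factors 4 had the order, with Irf8 at -0.23, 0.02, 0.12 and 0.54, Cebpb at 0.30, 0.02, -0.62 and -0.16, and Maf at 1.10, 0.34, -0.23 and -0.68. Of 11 clearance and uptake genes 5 had it, among them the lectin Clec10a with 1.27, 1.52, -1.83 and -0.78, whereas Cd36, a scavenger receptor that endothelium carries as well, had -0.59, -0.61, -0.04 and -0.27. The bridging ligand Gas6 had -0.83, -0.53, 0.50 and 0.11, the reverse of Cd68 in sign on all 4 arrays. Of 6 oxidase partners 2 had it, namely the GTPases Rac2, at 0.17, 0.58, -1.54 and 0.59, and Rac1, at 0.20, 0.36, -0.64 and 0.09, while the oxidase chaperone gene Cybc1 had -0.36, 0.02, -0.32 and -0.14. Of 9 recruitment and growth genes 5 had it. The monocyte chemokine receptor Ccr2 had 0.59, 1.83, -0.91 and 0.36. Of its ligands, Ccl2 had 0.00, 0.43, 0.52 and 0.88 and Ccl7 had 0.46, 0.95, -0.02 and 0.47. In the 6 lists 0 genes passed the limma test at an adjusted p under 0.05 by either reading of the columns, where 0% of all genes did. At an unadjusted p under 0.05 in that test there was 1 clearance gene by the first reading, against 3.39% of all genes. By the other reading there was 1 oxidase partner, against 3.07%.

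Between the peptides, 0 of the 34 genes passed, where 0% of 14871 genes did (limma, adjusted p under 0.05). At an unadjusted p under 0.05 there were 0 of 34 phagocyte genes, against 504 genes or 3.39% of all. The lowest adjusted p among the 34 was 0.9999. Their coefficients had a median of -0.02, as over all genes, with 16 above 0 and 18 below. They ran from -0.91 for C3ar1 (SE 0.57, n = 4), which has no measured feature, to 0.56 for Ms4a7 (SE 0.68, n = 4). Cd68 had -0.20 (SE 0.47), with a 95% interval from -1.43 to 1.03, and Cybb had 0.10 (SE 0.44), with an interval from -1.05 to 1.25. Mrc1 had -0.87 (SE 0.69), with an interval from -2.69 to 0.94. Intervals of this width do not show that the peptides acted alike. The narrowest was 1.28 log2 units, for Lyz2, and the widest 4.28, for Msr1. The 1 feature of Lyz2 held the shared value next to 0 on 3 arrays, so its ratio was not resolved there.

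No phagocyte gene kept 1 sign on all 4 turned arrays, whereas 10.0% of genes did. With 4 ratios a gene, exact sign flips (two-sided) cannot give a p under 0.125, and the lowest among the 34 was 0.375. With columns taken as turned before deposit, 0 of 34 passed against 0% of 14863 genes, and 0 of 34 had an unadjusted p under 0.05 against 3.07%. The coefficient was then below 0 for 25 genes and above 0 for 9, with a median of -0.23 against -0.02 over all genes, and the lowest adjusted p was 0.9996. Ms4a7 had -0.92 (SE 0.68) and Fcgr3a had -0.59 (SE 0.39). By that reading 3 genes, Marco, Lyz2 and Cd80, had 1 sign on all arrays, against 11.4% of genes, and each rests on a single feature that was dim or saturated on 3 arrays.

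**Figure D4:**
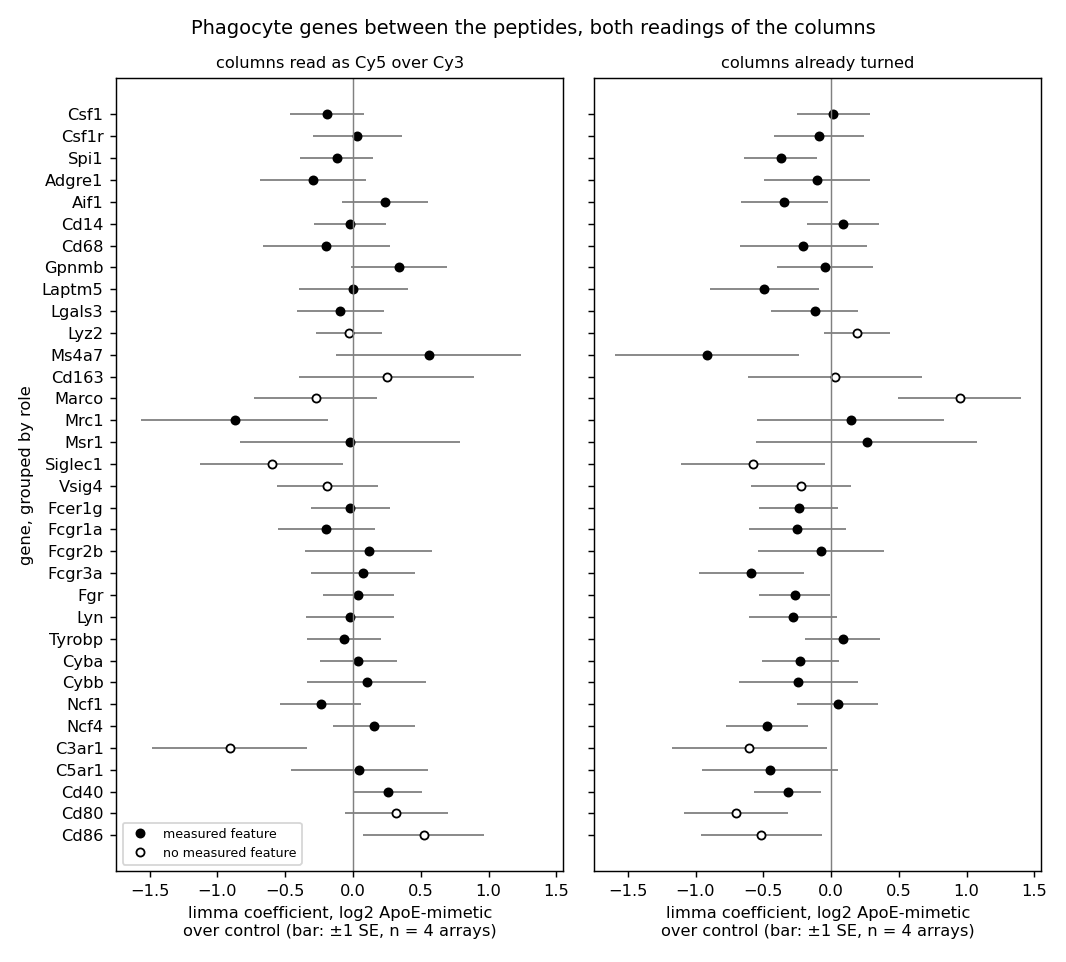
Limma coefficient (horizontal axis, log2, bar of 1 SE either side, n = 4 arrays) of the 34 phagocyte genes for columns read as Cy5 over Cy3 (left) and for columns already turned (right), with open circles for genes without a measured feature. On the left the values lie between -0.91 and 0.56, and on the right 25 of 34 lie below 0.

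Without replicate 1, 4 genes reached an unadjusted p under 0.05, where 2.45% of all genes did, and none passed over all genes in the limma fit. They were Mrc1 at -1.79 (SE 0.50), C3ar1 at -1.67, Siglec1 at -1.29 and Cd86 at 1.10, and only Mrc1 of these has a measured feature. In the model without a dye term, again without replicate 1, Mrc1 had -1.53 and Cd86 1.08, where 3.38% of all genes had an unadjusted p under 0.05, and without replicate 3 in that model Ms4a7 had 1.41 (SE 0.49), where 5.51% of all genes had an unadjusted p under 0.05. These genes are named after their values were seen. When the median of each grid column was subtracted, the phagocyte median on replicate 4 was -0.31 with 10 of 34 genes above 0, the same side as before. Aif1 and Fcer1g, at -0.04 each, and Siglec1, at 0.15, changed side there.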

How the data were processed

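Per the labels, total RNA of the grafts was labelled with Cy3 and Cy5 (Agilent QuickAmp). The deposited table, as the authors made it, holds 45220 features with values taken as log2 ratios of the channels. The scanner, background correction, normalization, log base and numerator were not given in the sources used here, and the log base is a reading of the values. As deposited, the columns had medians of -0.17, -0.04, -0.10 and -0.58 on replicates 1 to 4.

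A single symbol was annotated for 25353 features, several for 48 and none for 19819; 25306 features matched a RefSeq table of GRCr8 by gene number and 1 symbol was updated. Features were averaged per gene, each array was centred on its median gene, and limma 3.58.1 in R 4.3.3 (lmFit, eBayes) was fitted over all 14871 genes with a peptide and a dye coefficient, two-sided, with Benjamini-Hochberg adjustment. SEs and p-values rest on the spread between arrays of 1 dye orientation, 2 in each, and on the moderation of limma, and not on the spread over the 4 pairs. The number of arrays limits the precision.

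The phagocyte genes and the other lists were chosen with earlier results of these data known. Among the 34 genes, 4 ratios are given for each with a measured feature. Of each further phagocyte list the first 3 genes with one, in written order, are named, and of the marker lists the neutrophil genes with one. The dendritic cell markers had medians of 0.47, 0.46, 0.19 and -0.24, and 3 erythroid markers -0.23, -1.14, -0.53 and -0.53. Alternatives were the dye term, the reading of the columns, centring, scaling, dim features, the average over features, the array grid, robust variances, array weights and each replicate left out. Promoter sequences are those of RefSeq on GRCr8, and no protein sequence was used here.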

Additional observations from a re-analysis of the deposited data

Results flagged for a closer look

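Of the 34 phagocyte genes, 2 had 1 array far from the other 3 by Dixon's ratio of gap to range, above the 95% limit for 4 samples. Chance sets apart about 1 gene in 20, so 2 of 34 is near that share, and the share over all genes is not given here. Lyn had -0.99 on replicate 3 against 0.20 to 0.39 on the others, a ratio of 0.865. Its 3 features were all measured and all lay below 0 on that array, whereas on replicate 4 they ran from -0.21 to 1.00. Cd86 had -1.14 on replicate 1 against 0.88 to 1.19, a ratio of 0.869. It has 2 features, neither of them a measured one, and on replicate 1 these had 0.09 and -2.38.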

How the results depend on the processing

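The counts of genes and of phagocyte genes with an adjusted p under 0.05 were 0 in every alternative run. The count of phagocyte genes at an unadjusted p under 0.05 was 0 in the alternatives that kept all arrays and 0 to 4 with 1 replicate left out, with or without the dye term. Without replicate 1 it was 4, or 2 in the model that had no dye term, and without replicate 3 and the dye term it was 1. Over all genes that count was 504, and 95 of 6731 on measured features, 1183 without replicate 2, and 819 without replicate 3 and the dye term. The mean over arrays of the phagocyte median was -0.08, and -0.05 with scaled arrays, -0.01 without centring, -0.01 on measured features, -0.10 with the median over features, -0.04 with grid columns subtracted and -0.15 with columns already turned. With 1 replicate left out it ran from -0.29 to 0.14. No single gene was called, so its sign is no result. It changed for 23 of 34 genes with columns already turned, 6 without centring, 4 with scaled arrays, 7 of 26 without dim features, and 1 each with the median over features and with grid columns subtracted. Leaving out a replicate changed it for 8 to 14 of 34 genes with the dye term, and for 6 to 10 without it; the cause was not tested. The replicates are paired within arrays, as ratios, so no further block was fitted. Dim and saturated features limit the 8 genes without a measured feature.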
